A study of Mus musculus with 2 samples.

Results

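Colon nuclei from 2 mouse libraries were used to follow 10 genes of the transforming growth factor-β (TGF-β) pathway and its matrix outputs. These were the ligands Tgfb1, Tgfb2 and Tgfb3, the receptors Tgfbr1, Tgfbr2 and Tgfbr3, the latency protein gene Ltbp1, and the fibrosis-linked genes Fn1, Postn and Tnc. They were matched by exact symbol, and all 10 were found among the 32285 genes of the count tables. One library came from wild type (WT) mice and the other from Ncr1cre+ Hif-1αfl+/fl+ mice (HIF-1α KO), in which the Cre recombinase is driven by Ncr1, the gene for the receptor NKp46 of natural killer and related innate lymphoid cells, so that the loss of Hif-1α is aimed at those cells and not at the stroma. Mice of both genotypes, 8 to 12 weeks old, had chronic colitis from 4 cycles of 3 days of 2% dextran sulfate sodium (DSS) and 4 days of recovery, were taken on day 28, and 3 animals per genotype were pooled. Both groups had DSS, and no untreated colon enters the comparison. Since each genotype had 1 library, no difference below has a replicate check, no p-value is given, and the 95% intervals in brackets cover counting error only.

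The pathway has a simple order. TGF-β ligands are secreted in a latent form that is bound by latency proteins such as LTBP1 and held in the matrix, and integrins or proteases release them. The freed ligand binds the type II receptor TGFBR2, which activates the type I receptor TGFBR1, while TGFBR3 (betaglycan) presents ligand, above all TGF-β2, without a kinase of its own. The signal runs through SMAD proteins to genes such as Fn1, Postn and Tnc, which encode fibronectin, periostin and tenascin-C. In the gut wall these matrix proteins are made mainly by fibroblasts, myofibroblasts and smooth muscle cells, and they accumulate in scarred tissue.

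Levels are counts of unique molecular identifiers (UMIs) per 1000000 UMIs of a class of nuclei (CPM). Only nuclei with 400 to 5000 detected genes and a mitochondrial share of at most 10% were used. These were 4884 from the WT library and 4702 from the HIF-1α KO library, with 13259430 and 23605502 UMIs, at medians of 2058.5 and 4197 UMIs per nucleus, and 3 barcodes occurred in both libraries. Ncr1 had 1 and 0 UMIs, and Hif1a, whose 3′ counts need not lie in the deleted part, stood at 172 and 199 CPM over all nuclei and checks nothing about the deletion. Classes were named from other marker genes, with the 10 genes and 56 further pathway genes kept out of the clustering. There were 249 WT and 127 HIF-1α KO fibroblast-like nuclei, and 273 and 129 smooth muscle-like nuclei. The 8 fibroblast markers together reached 2727 and 3128 CPM in the fibroblast-like class, and the 7 smooth muscle markers 5498 and 11847 CPM in the smooth muscle-like class, so the contractile genes that define the latter class were themselves higher in the HIF-1α KO library. Beside these, 9 goblet cell markers summed to 1390.3 and 2285 CPM in the fibroblast-like and 1429 and 2371 CPM in the smooth muscle-like nuclei, all 9 with UMIs in both libraries. Over all nuclei they reached 3643 and 4517 CPM. Enteric neuron markers summed to 5943 and 7479 CPM in the smooth muscle-like nuclei, where Kcnip4, one of them, was a leading gene of a subcluster described below. The part of these marker levels in the ratios below was not tested.

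Fn1, Postn and Tnc were highest in smooth muscle-like nuclei, and for Fn1 and Tnc that level was above the fibroblast-like one beyond counting error. Fn1 (ENSMUSG00000026193, chromosome 1, 71585520 to 71653200, minus strand, GRCm38 as all positions here) stood at 709.9 (647 to 777) CPM in the WT library and 1179 (1083 to 1282) CPM in the HIF-1α KO library in smooth muscle-like nuclei. In fibroblast-like nuclei it stood at 251 (212 to 294) CPM in the WT library and 393 (334 to 459) CPM in the HIF-1α KO library. The intervals of these classes did not overlap in either library. Lymphatic endothelial-like nuclei of the HIF-1α KO library also had a higher Fn1 level than fibroblast-like ones. Of their 57 UMIs, 34 lay in 1 nucleus, and without it they stood at 193 CPM. Postn (ENSMUSG00000027750, chromosome 3, 54361109 to 54391037, plus strand) had 292 (253 to 337) and 454 (395 to 519) CPM in smooth muscle-like and 218 (182 to 258) and 340.3 (286 to 403) CPM in fibroblast-like nuclei, in the order WT and HIF-1α KO that is kept from here on, and within each library these neighbouring intervals overlapped. Tnc (ENSMUSG00000028364, chromosome 4, 63959785 to 64047015, minus strand) had 692 (629 to 758) and 676 (604 to 755) CPM in smooth muscle-like and 342 (297 to 392) and 443 (380.1 to 513) CPM in fibroblast-like nuclei, with no overlap between the classes. With nuclei classed singly by marker score, fibroblast-like nuclei were instead highest for Tnc in the HIF-1α KO library, at 649 CPM. Of the other classes with at least 10 Tnc UMIs in both libraries, lymphatic endothelial-like nuclei had the next highest level, at 130.2 (85.1 to 191) and 178 (111 to 269) CPM, but 1 HIF-1α KO nucleus carried 13 of 22 UMIs, and without the richest nuclei the levels were 101 and 82.1 CPM. Mesenchymal-like nuclei, the name used here for both classes together, were 10.7% and 5.44% of all nuclei but held 60.9% and 65.9% of all Fn1 UMIs, 66.1% and 73.4% of the Postn UMIs and 67.4% and 76.9% of the Tnc UMIs.

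**Figure D1:**
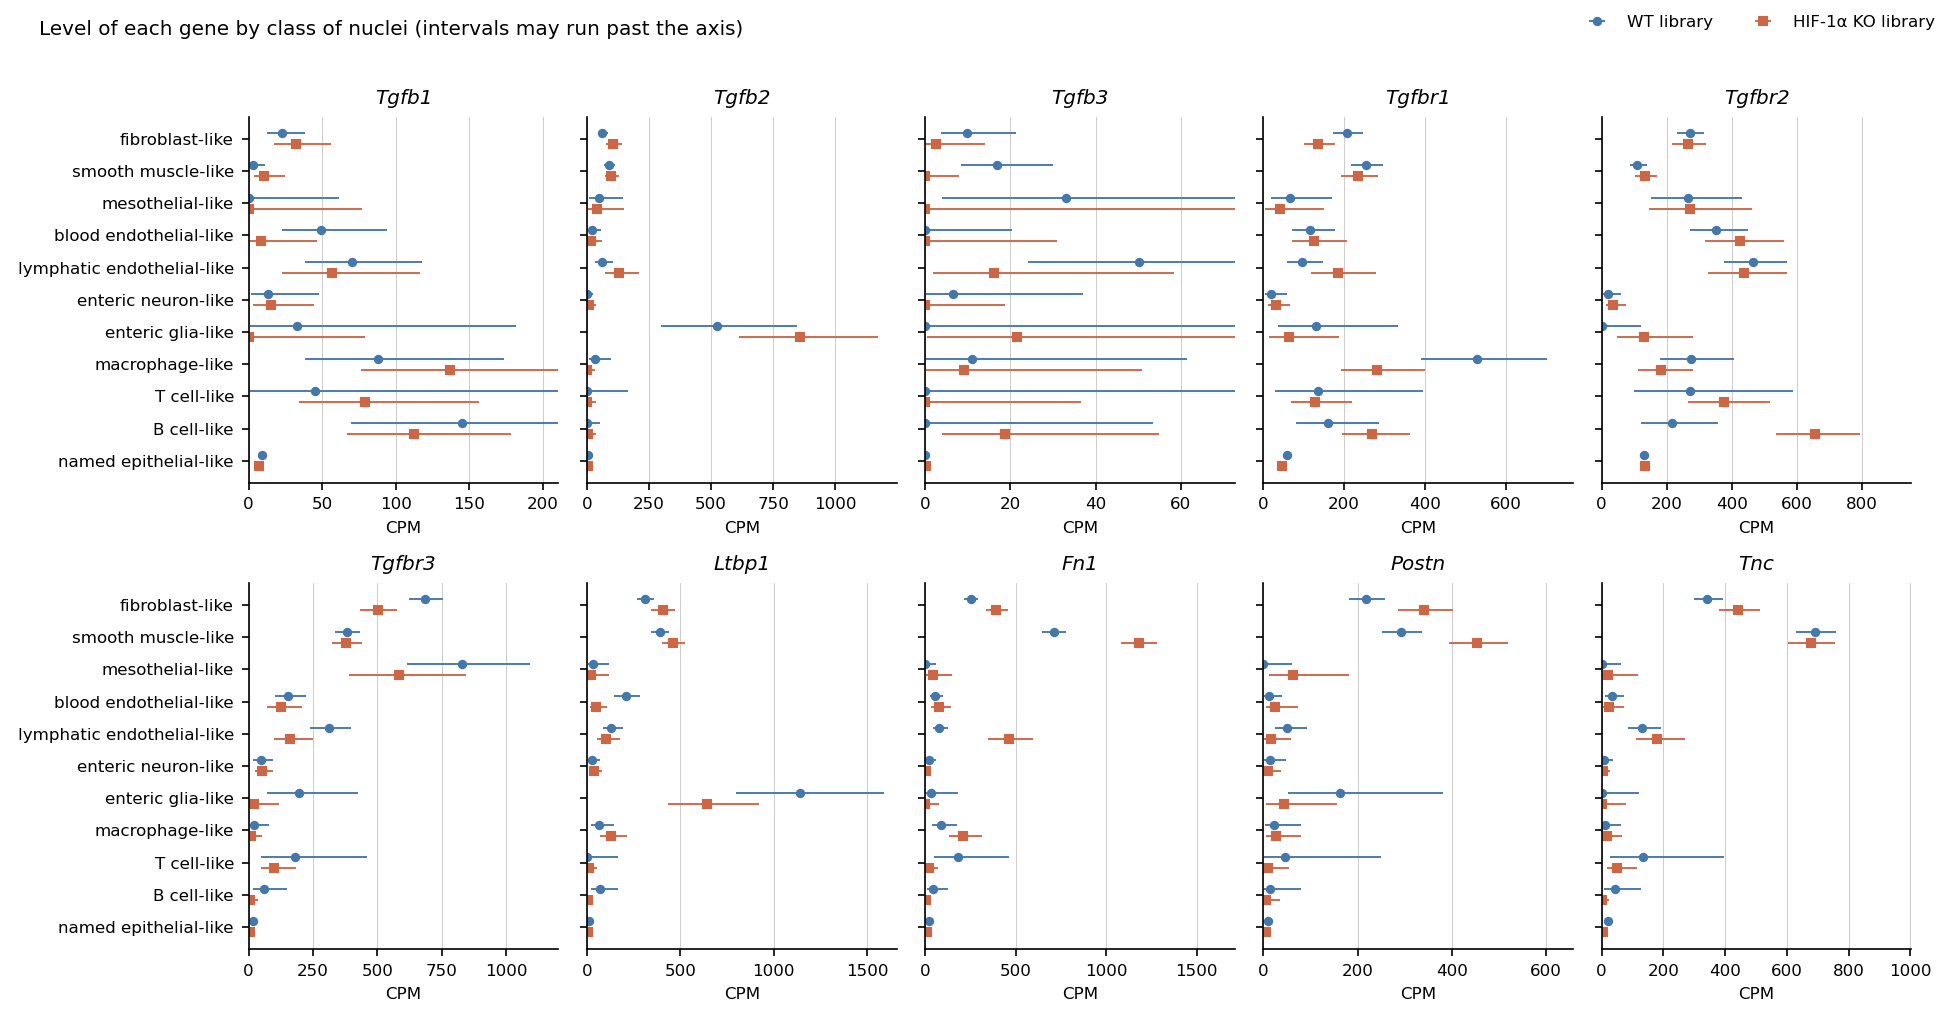
Level of each of the 10 genes in CPM (x axis, linear, a scale of its own for each gene) in 10 named classes and the named epithelial-like nuclei together (y axis). Points are the WT library (circles) and the HIF-1α KO library (squares), and bars are exact 95% Poisson intervals, some of which run past the axis. Fn1, Postn and Tnc are highest in smooth muscle-like nuclei, followed by fibroblast-like nuclei except for Fn1 in the HIF-1α KO library. There the lymphatic endothelial-like point lies above the fibroblast-like one, with 34 of its 57 UMIs in 1 nucleus. Tgfb2 and Ltbp1 are highest in the 12 and 9 enteric glia-like nuclei. Tgfbr1 is highest in macrophage-like nuclei, with an interval that overlaps the smooth muscle-like one in the HIF-1α KO library.

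Within the stroma, Fn1 and Postn were higher in the HIF-1α KO library in both classes, whereas Tnc was not past 1.5-fold in either by summed UMIs. The log2 ratio of the HIF-1α KO over the WT level was 0.65 (0.32 to 0.98) for Fn1 and 0.64 (0.29 to 1.00) for Postn in fibroblast-like nuclei, a 1.57-fold and 1.56-fold difference. In smooth muscle-like nuclei the log2 ratio was 0.73 (0.55 to 0.91) for Fn1 and 0.63 (0.34 to 0.92) for Postn. For Tnc it was 0.37 (0.07 to 0.67) in fibroblast-like and -0.03 (-0.24 to 0.18) in smooth muscle-like nuclei, so the libraries could not be told apart in the latter. The contrast with Tnc depended on depth and weighting, since with nuclei thinned to 1000 UMIs, or weighted equally, fibroblast-like Tnc was past 1.5-fold at 0.64 and 0.61, while smooth muscle-like Tnc was -0.38 and -0.33. A gene was counted as past the threshold at a ratio of at least 1.5-fold either way with at least 50 UMIs in both libraries together. By that rule 3 of the 8 genes with enough UMIs were higher in fibroblast-like nuclei (Tgfb2, Fn1 and Postn), where 10.8% of 4247 genes were, and 1 of 8 (Tgfbr1) was lower, where 6.33% were. In smooth muscle-like nuclei 2 of 8 were higher (Fn1 and Postn), against 12% of 4244 genes, and 0 were lower, against 8.01%. The medians over the 8 genes were 0.38 and 0.20 on the log2 scale, and over all genes counted 0.07 and 0.03. Scaling by median of ratios or by the trimmed mean of M values (TMM) lowered every fibroblast-like log2 ratio by 0.10 or 0.12 and every smooth muscle-like one by 0.07. Fn1 then stood at 0.55 or 0.53 and Postn at 0.55 or 0.53 in fibroblast-like nuclei, just below 1.5-fold, and Postn in smooth muscle-like nuclei at 0.57, also below it. Fibroblast-like Postn was also below 1.5-fold without integration, at 0.43, and at resolution 2, at 0.49.

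The share of nuclei with at least 1 UMI was higher for both genes too. Fn1 was found in 29.3% and 43.3% of fibroblast-like and 52.0% and 64.3% of smooth muscle-like nuclei, and Postn in 28.5% and 40.2% and in 35.5% and 52.7%. Median depths were 1952 and 2405 UMIs in fibroblast-like and 1940.0 and 2397 UMIs in smooth muscle-like nuclei, so every nucleus was also thinned to 1000 UMIs, which left out 5 HIF-1α KO fibroblast-like and 2 smooth muscle-like nuclei. Thinned, Fn1 was found in 16.5% and 24.6% of fibroblast-like and in 32.6% and 49.6% of smooth muscle-like nuclei. The thinned shares of Postn were 13.3% and 25.4% in fibroblast-like and 23.1% and 30.7% in smooth muscle-like nuclei, and those of Tnc 15.7% and 16.4% and then 31.5% and 29.1%. In named epithelial-like nuclei, which served as the comparison class, the thinned shares were 2.64% and 1.06% for Fn1, 1.13% and 0.660% for Postn and 2.41% and 0.631% for Tnc, at median depths of 2780.5 and 4915 UMIs before thinning. Tnc was the most uneven of the outputs among fibroblast-like nuclei. The 25 WT and 13 HIF-1α KO nuclei richest in it held 84.7% and 81.4% of its UMIs, against 64.1% and 59.9% for Fn1. The highest single nucleus carried 30 and 24 Tnc UMIs. Without the richest nucleus of each library the fibroblast-like log2 ratios were 0.59 for Fn1, 0.56 for Postn and 0.39 for Tnc, and the smooth muscle-like ones 0.67, 0.63 and -0.04. Postn in fibroblast-like nuclei was then just below 1.5-fold.

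Over all nuclei the same genes pointed the other way. Fn1 stood at 76.6 (72.0 to 81.5) and 45.5 (42.8 to 48.3) CPM, Postn at 37.1 (33.9 to 40.5) and 20.1 (18.3 to 22.0) CPM and Tnc at 74.2 (69.6 to 79.0) and 27.2 (25.1 to 29.3) CPM, with log2 ratios of -0.75 (-0.88 to -0.63), -0.89 (-1.07 to -0.70) and -1.45 (-1.60 to -1.31). Tgfbr3 at -1.71, Ltbp1 at -1.27 and Tgfb2 at -0.66 were lower as well, so 6 of the 9 genes with enough UMIs were past 1.5-fold lower, where 16.5% of 14393 genes were, and 0 were higher, where 13.3% were. Mesenchymal-like nuclei, which held most of the Fn1, Postn, Tnc, Tgfbr3 and Ltbp1 UMIs, made up 10.7% and 5.44% of nuclei and 9.56% and 3.67% of all UMIs. Of the Fn1 UMIs, 40 and 23 lay in the unnamed cluster of 603 and 371 nuclei, and 94 and 18 in that of 717 and 160. Without the classes, fewer nuclei of a kind and less RNA per nucleus cannot be told apart, and whether the share of mesenchymal nuclei differed between the mice or only between these 2 preparations cannot be told apart either. For Tgfbr1 the log2 ratio over all nuclei was -0.52 (-0.64 to -0.41) and for Tgfbr2 -0.01 (-0.09 to 0.07).

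**Figure D2:**
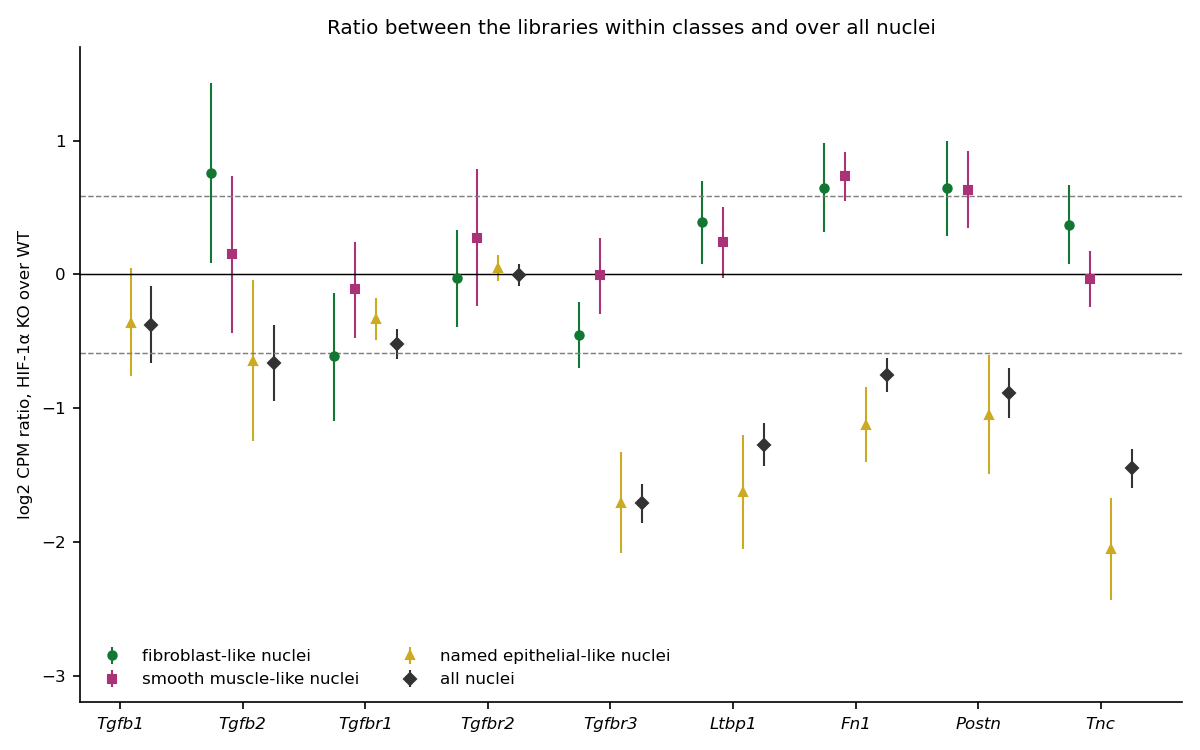
Log2 ratio of the CPM level in the HIF-1α KO over the WT library (y axis) for 9 genes (x axis) in fibroblast-like (circles), smooth muscle-like (squares), named epithelial-like (triangles) and all nuclei (diamonds), for genes with at least 50 UMIs in both libraries together. Bars are exact conditional 95% intervals for counting error, and dashed lines mark 1.5-fold. Fn1 and Postn lie above 0 in both mesenchymal classes and below 0 over all nuclei, at -0.75 and -0.89.

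The levels of the stromal genes in epithelial-like nuclei were low, and lower still in the HIF-1α KO library. In the 2656 and 3485 named epithelial-like nuclei, Fn1 stood at 23.5 (20.4 to 26.9) and 10.8 (9.39 to 12.3) CPM, Postn at 9.35 (7.46 to 11.6) and 4.52 (3.64 to 5.55) CPM, Tnc at 18.9 (16.2 to 22.0) and 4.57 (3.68 to 5.61) CPM, Tgfbr3 at 16.4 (13.8 to 19.2) and 5.02 (4.09 to 6.10) CPM and Ltbp1 at 12.6 (10.4 to 15.1) and 4.07 (3.24 to 5.06) CPM. Together with Tgfb2 that made 6 of 9 genes past 1.5-fold lower in the HIF-1α KO library, against 14.0% of 13111 genes, and 0 higher, against 12.9%. These levels were 4.81% and 1.32% of the mesenchymal-like level for Fn1, 3.65% and 1.13% for Postn, 3.62% and 0.804% for Tnc, 3.10% and 1.15% for Tgfbr3, 3.58% and 0.937% for Ltbp1 and 6.17% and 2.94% for Tgfb2. The same share for 12 fibroblast and smooth muscle markers ran from 1.60% to 12.8% in the WT library, with a median of 3.46%, and from 0.482% to 2.73% in the HIF-1α KO library, with a median of 1.05%. The 5 genes Fn1, Postn, Tnc, Tgfbr3 and Ltbp1 lie within the span of the markers in both libraries. Tgfb2 was within it in the WT library and slightly above it in the other. Whether these epithelial-like levels are background or expression was not tested. Tgfbr1 at 25.1% and 24.4% and Tgfbr2 at 69.5% and 69.3% lay above every marker. The epithelial-like levels of these receptors were 58.0 (53.1 to 63.2) and 46.1 (43.2 to 49.2) CPM for Tgfbr1 and 129.9 (123 to 138) and 134 (129 to 139) CPM for Tgfbr2.

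**Figure D3:**
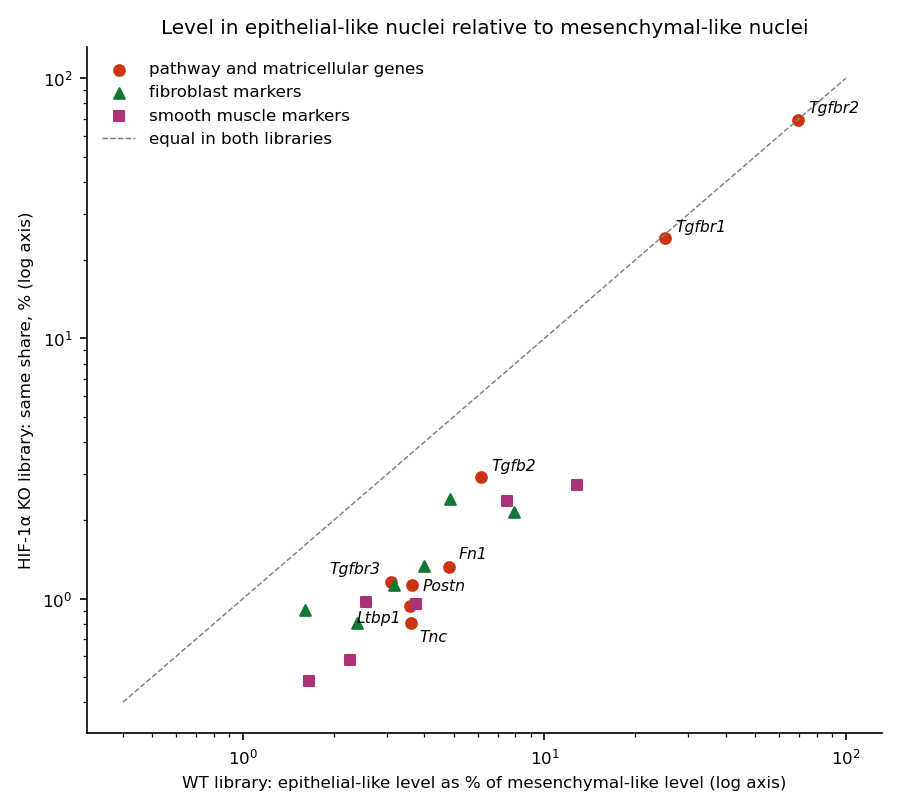
Level in named epithelial-like nuclei as a percentage of the level in mesenchymal-like nuclei, for the WT library (x axis, log) and the HIF-1α KO library (y axis, log). Points are 8 of the 10 genes (circles), fibroblast markers (triangles) and smooth muscle markers (squares) with at least 50 mesenchymal-like UMIs. Tgfbr1 and Tgfbr2 sit on the dashed line of equal shares near 25% and 69%, and the others lie below it, within the span of the stromal markers except Tgfb2, at 2.94% in the HIF-1α KO library against 2.73% for the highest marker.

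Promoter sequences are shown for Postn and Tgfb2, which were past 1.5-fold in fibroblast-like nuclei, and for Tnc, which was not. Each is the stretch of 250 bases before an annotated start in RefSeq (GRCm38.p6), 5′ to 3′ on the strand of the gene. Capitals mark CAGAC or its reverse complement GTCTG, the short sequence bound by SMAD3 and SMAD4. The table of promoters had entries for 7 of the 10 genes, not for Tgfb3, Tgfbr3 and Fn1.
Postn, upstream start, chr3:54359017-54359266, plus strand: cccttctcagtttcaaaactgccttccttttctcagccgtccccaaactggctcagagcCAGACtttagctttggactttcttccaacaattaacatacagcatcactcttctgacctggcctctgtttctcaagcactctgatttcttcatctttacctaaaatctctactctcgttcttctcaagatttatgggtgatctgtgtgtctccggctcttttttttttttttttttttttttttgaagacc
Postn, downstream start, chr3:54360857-54361106, plus strand: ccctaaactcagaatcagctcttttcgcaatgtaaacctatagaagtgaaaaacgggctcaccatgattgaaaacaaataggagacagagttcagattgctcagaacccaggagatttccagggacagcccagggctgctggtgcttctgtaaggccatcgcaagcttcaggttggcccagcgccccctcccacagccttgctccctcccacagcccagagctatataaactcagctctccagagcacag
Tnc, chr4:64046937-64047186, minus strand: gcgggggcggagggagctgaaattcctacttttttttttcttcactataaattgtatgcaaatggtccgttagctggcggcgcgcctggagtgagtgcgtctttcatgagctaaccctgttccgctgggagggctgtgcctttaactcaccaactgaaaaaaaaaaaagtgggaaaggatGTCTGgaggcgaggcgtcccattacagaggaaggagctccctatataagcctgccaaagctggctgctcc
Tgfb2, chr1:186705990-186706239, minus strand: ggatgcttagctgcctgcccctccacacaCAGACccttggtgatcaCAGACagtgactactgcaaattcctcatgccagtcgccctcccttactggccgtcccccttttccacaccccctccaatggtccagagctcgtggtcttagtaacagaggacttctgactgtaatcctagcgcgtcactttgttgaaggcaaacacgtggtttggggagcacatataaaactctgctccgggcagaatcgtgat

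The upstream Postn window held CAGAC once, beginning 191 bases before the start, the downstream Postn window held none, the printed Tnc window held GTCTG once at 70 bases, and the Tgfb2 window held CAGAC 2 times, at 221 and 204 bases. The other Tnc entry, chr4:64047016-64047265, lies directly before the gene start at 64047015 given above and held neither CAGAC nor GTCTG. The printed Tnc window belongs to a start inside the bounds given for the gene and overlaps the gene in part. These letters, on either strand, were found in 42.2% of the 32851 promoter windows of that length, so their presence does not set these genes apart. The shorter GTCT, which overlaps the longer motif, was in 82.9% of all windows. None of the 4 printed windows held TGACTCA, the AP-1 motif, or TGACGTCA, the cyclic AMP response element, which were in 4.46% and 1.55% of windows. Among the other entries, the upstream Ltbp1 window held TGACGTCA once. A match is a description of letters only.

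The ligands were sparse, and their sources differed. Tgfb1 (ENSMUSG00000002603, chromosome 7, 25687002 to 25705077, plus strand) had its highest levels in immune nuclei, with 10 and 18 UMIs or 145 (69.5 to 267) and 113 (66.7 to 178) CPM in B cell-like nuclei and 8 and 15 UMIs or 88.2 (38.1 to 174) and 137 (76.5 to 225) CPM in macrophage-like nuclei. Their intervals overlap each other and those of lymphatic endothelial-like nuclei at 70.1 (38.3 to 118) and 56.5 (22.7 to 116) CPM. Of the 10 WT B cell-like UMIs, 5 lay in 1 nucleus, and without it the level was 76.7 CPM. Fibroblast-like nuclei had only 14 and 13 UMIs, too few for a ratio, and named epithelial-like nuclei stood at 9.13 (7.26 to 11.3) and 7.10 (5.99 to 8.37) CPM. Tgfb2 (ENSMUSG00000039239, chromosome 1, 186622792 to 186705989, minus strand) was highest in the 12 and 9 enteric glia-like nuclei, where 16 and 40 UMIs gave 522 (298 to 848) and 860.0 (614 to 1171) CPM and 75.0% and 77.8% of nuclei had a UMI. Of the other classes, lymphatic endothelial-like nuclei had up to 129 CPM, from 16 UMIs of which 1 nucleus carried 12 (36.5 CPM without it), and the B cell-like, T cell-like and macrophage-like classes had at most 3 UMIs in either library. Fibroblast-like nuclei had 38 and 42 UMIs of Tgfb2, or 62.2 (44.0 to 85.4) and 105 (75.8 to 142) CPM, a log2 ratio of 0.76 (0.09 to 1.43), and smooth muscle-like nuclei had 88.4 (67.1 to 114) and 98.4 (72.1 to 131) CPM, a log2 ratio of 0.16 (-0.43 to 0.74). Tgfb3 (ENSMUSG00000021253, chromosome 12, 86056745 to 86079041, minus strand) had 35 and 10 UMIs over all nuclei. Mesenchymal-like nuclei held 17 and 1 of them, with 11 and 0 in smooth muscle-like nuclei, where a floor of 3 UMIs is 6.42 CPM. The smooth muscle-like WT level was 16.8 CPM, and 9.18 CPM without 1 nucleus that carried 5 of the 11 UMIs.

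Ltbp1 (ENSMUSG00000001870, chromosome 17, 75005568 to 75392512, plus strand), which encodes the protein that stores latent TGF-β in the matrix, was shared by glia and stroma. Enteric glia-like nuclei stood at 1142 (796 to 1589) and 645 (435 to 921) CPM from 35 and 30 UMIs, smooth muscle-like nuclei at 390.0 (344 to 441) and 460.1 (401 to 526) CPM and fibroblast-like nuclei at 309.5 (267 to 357) and 405 (345 to 473) CPM, with overlapping intervals for the last pair. The log2 ratio was 0.39 (0.08 to 0.70) in fibroblast-like and 0.24 (-0.03 to 0.51) in smooth muscle-like nuclei, under 1.5-fold in both. Blood endothelial-like nuclei had 38 and 6 UMIs of Ltbp1, or 209 (148 to 287) and 50.1 (18.4 to 109) CPM.

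The receptors were spread more widely. Tgfbr1 (ENSMUSG00000007613, chromosome 4, 47353222 to 47414931, plus strand), the signalling type I receptor, was highest of the named classes in macrophage-like nuclei at 529 (390.1 to 702) and 283 (192 to 401) CPM from 48 and 31 UMIs, a log2 ratio of -0.91 (-1.61 to -0.22), where 9.03% of 753 genes were past 1.5-fold lower. The leading genes of this class included Adgre1, Mrc1 and Csf1r of macrophages and also S100a8 and S100a9 of neutrophils. The ranking was not steady. With all barcodes, at most 3000 detected genes, no integration or resolution 0.5, T cell-like nuclei led in the WT and smooth muscle-like nuclei in the HIF-1α KO library. In these settings no cluster was named macrophage-like. The T cell-like cluster there had Cxcl2, S100a9 and Il1b beside Skap1 among its leading genes. In the classes used here, the 14 and 46 T cell-like nuclei had only 3 and 13 Tgfbr1 UMIs. In the HIF-1α KO library, smooth muscle-like nuclei also led by marker score, and B cell-like nuclei with thinning. An immune subcluster led by Pdzd2 and Dlgap2, of 19 and 28 nuclei, had 13 and 32 UMIs. Without its richest nuclei it stood at 269 and 332 CPM. Fibroblast-like nuclei stood at 206 (172 to 246) and 135 (102 to 176) CPM, a log2 ratio of -0.61 (-1.10 to -0.14), and smooth muscle-like nuclei at 254 (217 to 296) and 235 (193 to 284) CPM, a log2 ratio of -0.11 (-0.47 to 0.24). The fibroblast-like difference was not seen in the share of nuclei with a UMI, which was 29.3% and 29.1%, but thinned to equal depth that share was 14.5% and 9.84%. The fibroblast-like log2 ratio of Tgfbr1 was under 1.5-fold in 4 settings, at -0.25 with nuclei classed singly by marker score, -0.46 without integration, -0.49 with nuclei weighted equally and -0.56 with nuclei thinned. Without integration and with thinning, the lower gene past 1.5-fold was Tgfbr3 in its place, at -0.65 and -0.68.

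Tgfbr2 (ENSMUSG00000032440, chromosome 9, 116084293 to 116175360, minus strand), the ligand-binding type II receptor, was high in endothelium, with 466 (376 to 571) and 436 (328 to 569) CPM in lymphatic and 352 (271 to 449) and 426 (317 to 560.4) CPM in blood endothelial-like nuclei, intervals that overlap. Fibroblast-like nuclei had 270.2 (231 to 315) and 265 (217 to 321) CPM, a log2 ratio of -0.03 (-0.39 to 0.33), and smooth muscle-like nuclei 109.7 (85.8 to 138) and 133 (102 to 170.1) CPM, a log2 ratio of 0.27 (-0.24 to 0.78). The smooth muscle-like ratio has no firm direction, since it was -0.66 with nuclei thinned and -0.47 with nuclei weighted equally. B cell-like nuclei differed between the libraries. In 40 WT and 64 HIF-1α KO nuclei there were 15 and 105 UMIs, or 218 (122 to 359) and 657 (537 to 795) CPM, a log2 ratio of 1.59 (0.81 to 2.48), where 26.4% of 918 genes were past 1.5-fold higher and 5.23% lower. A UMI of Tgfbr2 was found in 27.5% and 71.9% of these nuclei, and in 15.0% and 46.0% after thinning. The log2 ratio was between 1.08 and 1.19 under 4 other ways of drawing the B cell-like class, and 1.78 without the richest nucleus. Immune subclusters outside the named immune classes had smaller ratios. The one led by Pdzd2 and Dlgap2, of 19 and 28 nuclei, had 11 and 32 Tgfbr2 UMIs and 0.33 without the richest nuclei. Its leading genes also included Mybl1, Nuggc, Rgs13 and S1pr2, and by the marker rule it took the cycling crypt name. Whether its nuclei are of the B cell lineage was not tested. The one led by Gramd2 and Gal3st1, of 42 and 90 nuclei, had 9 and 35 UMIs and 0.94. The B cell-like class was singled out after its values were seen.

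Tgfbr3 (ENSMUSG00000029287, chromosome 5, 107106570 to 107289629, minus strand), the co-receptor betaglycan, had its highest levels in mesothelial-like and fibroblast-like nuclei in the clustering used here. Fibroblast-like nuclei stood at 685 (620.4 to 753) and 501 (434 to 575) CPM, a log2 ratio of -0.45 (-0.70 to -0.21), and the 18 and 13 mesothelial-like nuclei at 829 (615 to 1092) and 583 (388 to 843) CPM, with overlapping intervals. The fibroblast-like level was the higher one in the clustering used here, but smooth muscle-like nuclei came out highest without integration, at resolution 2 and with at most 3000 detected genes, and in the HIF-1α KO library also by marker score. Smooth muscle-like nuclei had 381 (335 to 431) and 379 (325 to 439) CPM, a log2 ratio of -0.01 (-0.29 to 0.28), and lymphatic endothelial-like nuclei 311 (238 to 398) and 162 (98.7 to 249) CPM, a log2 ratio of -0.94 (-1.75 to -0.20). In lymphatic endothelial-like nuclei 11.1% of 1496 genes were past 1.5-fold lower. Of the outputs, Fn1 was past 1.5-fold higher there, where 13.6% of genes were, with 15 and 57 UMIs or 75.1 (42.1 to 124) and 460.3 (349 to 596) CPM, but 14.9% and 15.0% of nuclei had a UMI and 1 HIF-1α KO nucleus carried 34 of the 57 UMIs. Without the richest nucleus of each library, Fn1 stood at 62.4 and 193 CPM. In macrophage-like nuclei 20 of 23 HIF-1α KO Fn1 UMIs were likewise in 1 nucleus.

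Receptors were also set beside the outputs nucleus by nucleus, in fibroblast-like nuclei thinned to 1000 UMIs. Tnc was found in 7 of 92 nuclei with Tgfbr3 and 32 of 157 without it among WT nuclei. Among HIF-1α KO nuclei it was found in 3 of 29 nuclei with Tgfbr3 and 17 of 93 without it. Such counts pool the subclusters described below, which differed in both genes before thinning. The subcluster led by Hhip had 119 and 67 Tgfbr3 UMIs but 2 and 0 Tnc UMIs. The subcluster led by Mmp13 had 75 and 55 Tgfbr3 UMIs and 157 and 123 Tnc UMIs. Whether the order held within a subcluster was not tested. Fn1 was found in 10 of 36 nuclei with Tgfbr1 and 31 of 213 without it in the WT library, and in 2 of 12 nuclei with Tgfbr1 and 28 of 110 without it in the other, the opposite order. Among smooth muscle-like nuclei, Fn1 was more frequent with Tgfbr1 in both libraries, in 21 of 48 nuclei with Tgfbr1 and 68 of 225 without it among WT nuclei and 15 of 19 nuclei with Tgfbr1 and 48 of 108 without it among the others. Tnc was about as frequent with Tgfbr3 as without it there, in 24 of 78 and 62 of 195 WT nuclei and 10 of 31 and 27 of 96 others. Tnc and Postn with Tgfbr1, and Tnc and Fn1 with Tgfbr2, were more frequent with the receptor in both classes of both libraries, some by little. For Tgfbr2 and Tnc, fibroblast-like counts were 13 of 55 and 26 of 194 WT nuclei and 8 of 26 and 12 of 96 others. The other pairs of receptor and output had no common order. The ligands were found in too few thinned nuclei to be read this way, at most 19 per class and library. Among the outputs in fibroblast-like nuclei, Postn was found in 9 of 41 nuclei with Fn1 and 24 of 208 without it in the WT library, and in 10 of 30 nuclei with Fn1 and 21 of 92 without it in the other. These counts describe nuclei of a single library each and have no test.

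Mesenchymal-like nuclei clustered again gave 8 subclusters, which are called by their leading genes and by the class that gave most of their nuclei, since 6 of the 8 had no name by the marker rule. The outputs had different homes among them. Fn1 was highest in the smooth muscle-like subcluster led by Dpp10 and Hs6st3, of 49 and 26 nuclei, at 1393 (1213 to 1591) and 2147 (1878 to 2443) CPM. Tnc was highest in the smooth muscle-like subcluster led by Ntrk3 and Alkal1, of 70 and 19 nuclei, at 1433 (1256 to 1628) and 1027 (778 to 1331) CPM. There 80.0% and 78.9% of nuclei carried Tnc. Postn stood at 565 (456 to 692) and 811 (591 to 1085) CPM in that same subcluster, and in the fibroblast-like one led by Hhip and Sncaip, of only 22 and 8 nuclei, at 266 (133 to 477) and 926 (593 to 1378) CPM. Of the fibroblast-like subclusters, the one led by Mmp13 and Nrg1, whose genes include Pdgfra, held the most Fn1 and Tnc, at 417 (343 to 502) and 557 (453 to 677) CPM and 589 (501 to 689) and 685 (569 to 817) CPM. The one led by Csmd1 and Pcdh15, of 24 and 9 nuclei, had almost no outputs, with 4 and 0 UMIs of Fn1, but had Ltbp1 at 712 (530.0 to 936) and 1289.9 (989 to 1654) CPM.

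The HIF-1α KO level of Fn1 was above the WT level in 7 of 8 subclusters, the exception being the one led by Csmd1 and Pcdh15, and so was Postn. In the 6 subclusters with at least 50 UMIs the log2 ratios ran from 0.42 to 1.34 for Fn1 and from 0.35 to 1.44 for Postn. The subcluster led by Hhip had fewer, with 6 and 11 UMIs of Fn1, of which 1 HIF-1α KO nucleus carried 8, and its log2 ratio of 1.55 was 0.41 without the richest nuclei. In the subclusters with over 40 nuclei in both libraries the log2 ratio of Fn1 was 1.16 (0.48 to 1.86) in the fibroblast-like one led by Frmpd4 and Edil3, where 13.6% of genes were past 1.5-fold higher, 0.42 (0.01 to 0.82) in the one led by Mmp13 and 0.69 (0.19 to 1.19) in the smooth muscle-like one led by Slc13a2, whose leading genes include those of epithelium and whose median depth was 1504 and 1361 UMIs. In the smooth muscle-like subcluster led by Ntrk3, 1 HIF-1α KO nucleus carried 42 of 71 Fn1 UMIs, and the log2 ratio of 1.34 was 0.39 without the richest nuclei. Tnc had no common direction, with log2 ratios from -0.48 in the subcluster led by Ntrk3 to 0.73 in the one led by Frmpd4 among the 6 that had at least 50 UMIs.

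The lower Tgfbr3 of fibroblast-like nuclei came with 1 subcluster above all. In the fibroblast-like subcluster led by Frmpd4 and Edil3 it stood at 912 (792 to 1046) and 455 (352 to 579) CPM from 206 and 66 UMIs, a log2 ratio of -1.0 (-1.42 to -0.60), where 8.87% of 1724 genes were past 1.5-fold lower. A UMI was found in 63.6% and 38.8% of its nuclei, and in 46.4% and 19.4% after thinning. The subcluster led by Mmp13 had 282 (221 to 353) and 306 (231 to 399) CPM, a log2 ratio of 0.12 (-0.41 to 0.64), and the small one led by Hhip and Sncaip, where Tgfbr3 was highest, had 2883 (2388 to 3449) and 2585 (2003 to 3282) CPM, a log2 ratio of -0.16 (-0.61 to 0.29). Nuclei led by Sncaip and Hhip were named smooth muscle-like, not fibroblast-like, at resolution 2 and without integration, so the class of these nuclei is not settled, and they held 119 of the 418 WT Tgfbr3 UMIs of fibroblast-like nuclei. In the 4 smooth muscle-like subclusters it ran from -0.33 to 0.23. Tgfb2 in smooth muscle-like nuclei had opposite values by subcluster, with 32 and 3 UMIs in the one led by Ntrk3 and 3 and 25 UMIs in the one with Adam22 and Kcnip4 among its leading genes, of which 1 HIF-1α KO nucleus held 14.

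**Figure D4:**
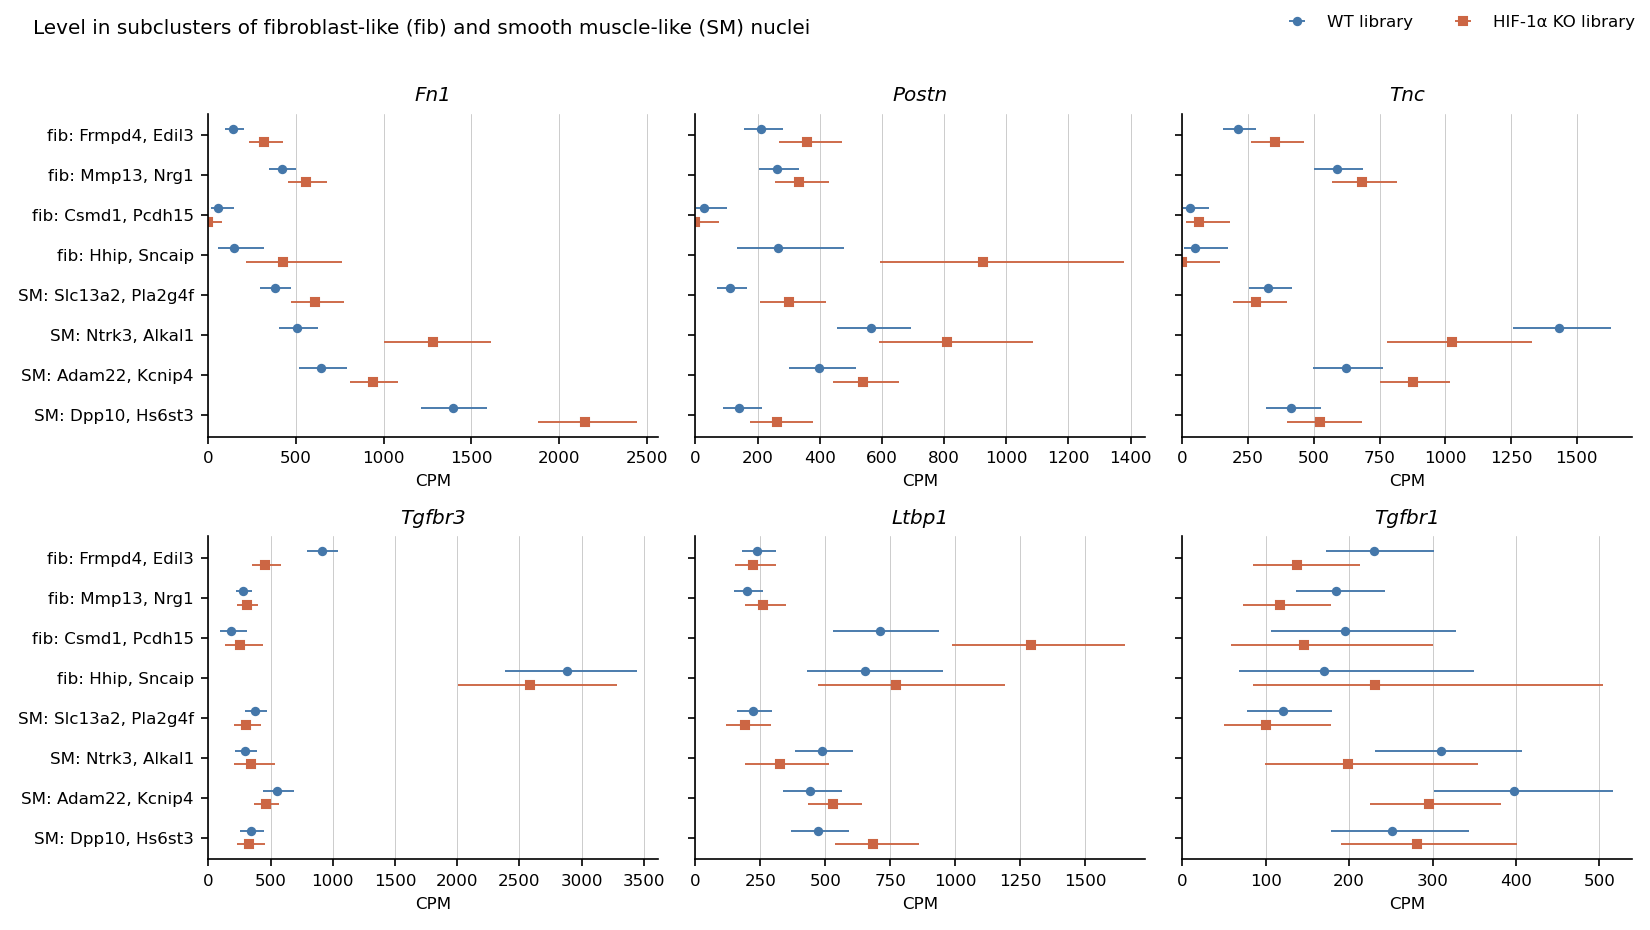
Levels of 6 genes in CPM (x axis, linear) in the 8 subclusters of fibroblast-like (fib) and smooth muscle-like (SM) nuclei (y axis), each called by 2 of its leading genes. Circles are the WT and squares the HIF-1α KO library, with exact 95% Poisson intervals. In 7 of 8 subclusters the HIF-1α KO point of Fn1 lies to the right, and Tgfbr3 lies to the left in the one led by Frmpd4, at 455 against 912 CPM.

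The other 56 genes of the pathway list gave a wider view, with 28 of 56 having at least 50 UMIs in fibroblast-like and 28 in smooth muscle-like nuclei. In fibroblast-like nuclei 3 of 28 were past 1.5-fold higher, where 10.8% of all genes counted were, 3 lower, where 6.33% were, and 22 between, with a median log2 ratio of -0.003 against 0.07 over all genes counted. The higher ones were Smad7, the inhibitory SMAD, at 70.4 and 138 CPM (log2 ratio 0.97, 0.36 to 1.58), below its level in named epithelial-like nuclei of 119.6 and 187 CPM, and the integrin subunit genes Itgb5 at 54.0 and 90.1 CPM (log2 ratio 0.74, 0.01 to 1.46) and Itgb8 at 42.6 and 70.1 CPM (log2 ratio 0.72, -0.10 to 1.55). The lower ones were Loxl2, a collagen cross-linking enzyme, at 62.2 and 30 CPM (log2 ratio -1.05, -2.12 to -0.08), Acvrl1, a type I receptor of the same family, at 73.7 and 40.0 CPM (log2 ratio -0.88, -1.80 to -0.03), and the matrix gene Fbln1 at 96.6 and 57.6 CPM (log2 ratio -0.75, -1.51 to -0.03). Receptors and responsive genes of the list did not move as one in these nuclei.

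In smooth muscle-like nuclei 8 of 28 were past 1.5-fold higher, where 12% of all genes counted were, 0 lower, where 8.01% were, and 20 between, with a median log2 ratio of 0.12 against 0.03 over all genes counted. Of these, 7 are described here. The contractile genes Acta2 and Tagln stood at 409.8 and 813 CPM (log2 ratio 0.99, 0.76 to 1.22) and 199.6 and 396 CPM (log2 ratio 0.99, 0.66 to 1.32), beside the higher sum of smooth muscle markers given above. The matricellular gene Ccn1 had 32.0 and 81.3 CPM (log2 ratio 1.35, 0.54 to 2.19) and the matrix gene Tnxb 92.9 and 158 CPM (log2 ratio 0.77, 0.26 to 1.28). The common SMAD gene Smad4 had 251 and 379 CPM (log2 ratio 0.59, 0.28 to 0.91), Smad7 42.7 and 83.5 CPM (log2 ratio 0.97, 0.23 to 1.72) and the integrin subunit gene Itgb6 54.8 and 83.5 CPM (log2 ratio 0.61, -0.09 to 1.30). For Smad7 and Itgb6 the level in named epithelial-like nuclei was above that in smooth muscle-like nuclei, at 119.6 and 187 CPM and 109 and 218 CPM, and epithelial markers in the smooth muscle-like nuclei summed to 1522 and 2082 CPM. The part of that background in their ratios, and in that of Smad7 in fibroblast-like nuclei, was not tested. The scaling shift of -0.07 given above would bring Smad4 and Itgb6 below 1.5-fold.

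**Figure D5:**
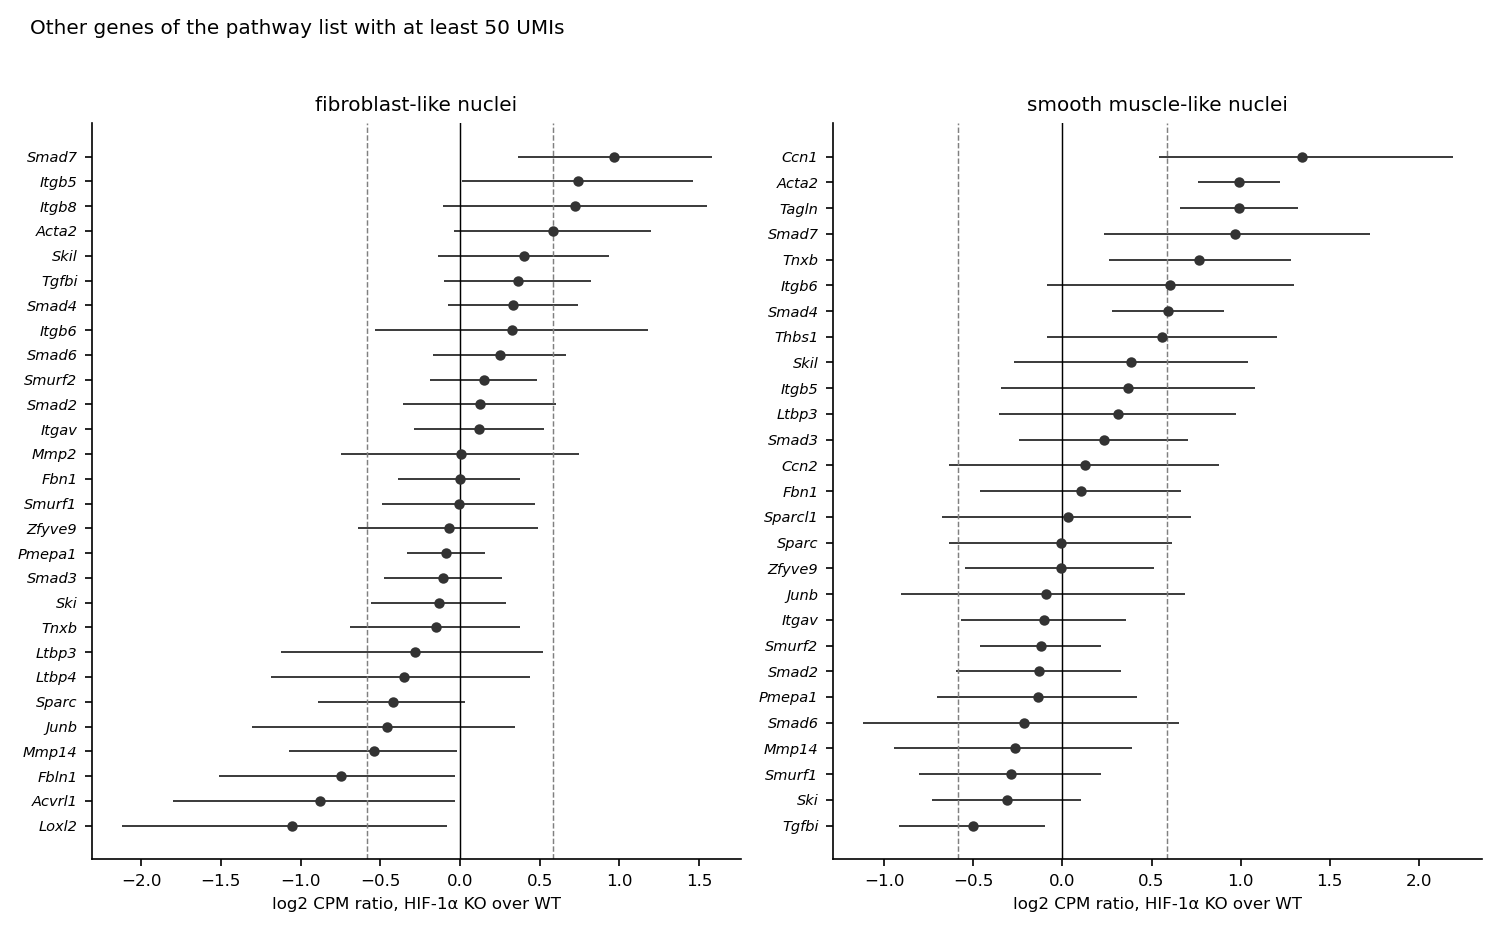
Log2 ratio of the HIF-1α KO over the WT level (x axis) for the other genes of the pathway list with at least 50 UMIs (y axis), in fibroblast-like (left) and smooth muscle-like nuclei (right), 28 and 27 genes. Bars are exact conditional 95% intervals for counting error, and dashed lines mark 1.5-fold. On the right, 7 of the genes shown lie past 1.5-fold on the higher side and 0 on the lower side.

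Genes with a like pattern were sought over the 8 classes with at least 50 nuclei in each library, among 10971 genes with at least 200 UMIs, by Pearson's r of the mean log2 level with 10 CPM added. Since 6 of these classes are epithelial and 2 mesenchymal, r is close to 1 for any gene of the stroma, and the classes of a library may share free RNA. The 3 nearest genes were Speg (0.998), Itgb3 (0.998), Meis1 (0.998) for Fn1, Pde1a (1.000), Grb10 (0.999), Ust (0.999) for Postn and Bnc2 (0.999), Adamts6 (0.999), Ltbp3 (0.999) for Tnc. For Ltbp1 they were Ust (0.999), Grb10 (0.999), Fat3 (0.999), for Tgfbr3 Rhobtb3 (0.997), Pdzrn3 (0.997), Sdk1 (0.997) and for Tgfb2 Rhoj (0.993), Ccdc3 (0.991), Rgs6 (0.990). The widely spread receptors had lower values, with Mapkbp1 (0.974), Klhdc8b (0.971), Nxn (0.97) for Tgfbr1 and Eif1b (0.965), Runx1 (0.956), Slc35c2 (0.943) for Tgfbr2. Within single libraries the first of these did not hold, since Eif1b and Tgfbr2 had r of 0.508 over the WT and 0.229 over the HIF-1α KO classes, while Runx1 had 0.862 and 0.936. Tgfb1 and Tgfb3 had too few UMIs in these classes for the ranking to be read.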

How the data were processed

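Nuclei of 1 WT and 1 HIF-1α KO library were sequenced by droplet 3′ single-nucleus RNA-seq. The authors aligned reads with Cell Ranger 7.0.1, and mm10 is the build named in the submitters' processing notes. The deposited counts were whole-number UMIs per gene and barcode, not normalized, and whether intronic reads were counted is not given in the sources used here. The 10 genes, the pathway list and the markers were chosen with earlier results of these data known.

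Here, nuclei with 400 to 5000 detected genes and at most 10% mitochondrial UMIs were kept, which are the limits of the study. No doublet caller was run, and a limit of 3000 genes was tried as an alternative. The libraries were integrated and clustered with Seurat 5.3.0 in R 4.3.3 (2000 variable features, 30 principal components, resolution 1, seed 1), with the 10 genes and the 56 of the pathway list left out. A cluster took the name of the marker list that led it, if at least 3 of its markers were at least 1 log2 unit above the other nuclei and in at least 10% of its own, and if no other list had more markers among its 10 leading genes. Fibroblast-like with smooth muscle-like nuclei, and immune nuclei, were then clustered again. The names are rebuilt and may differ from those of the study.

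UMIs were summed per class and library and divided by the total of the class (CPM, over 1000000). Intervals are exact Poisson for levels, exact conditional for log2 ratios and exact Clopper-Pearson for shares, at 95%, for counting error only, since UMIs of 1 pool are not replicates. A count of 0 allows up to 3 UMIs. No test was made between single libraries. The interval and count functions were tested on simulated data. TMM factors came from edgeR 4.0.16 and the figures from matplotlib 3.10.9. Tables were handled with Python 3.11.15, numpy 2.4.6, pandas 2.3.3 and scipy 1.17.1. Genes named in the text are all 10 genes, those of the pathway list past 1.5-fold in a mesenchymal class with at least 50 UMIs, and the 3 nearest in pattern of each of the 10 genes. Subclusters, single nuclei and the B cell-like, macrophage-like and lymphatic endothelial-like differences were singled out after their values were seen. Positions are those of GENCODE M21. Protein sequences were not analysed here. One gene of the pathway list and one leading gene of a subcluster are not reported here.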

Additional observations from a re-analysis of the deposited data

How the results depend on the processing

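No paired analysis was possible because each genotype had 1 library. The signs of the Fn1, Postn, Tnc, Tgfb2, Tgfbr1 and Tgfbr3 log2 ratios in fibroblast-like nuclei held under every alternative run, from 0.53 to 0.89 for Fn1, 0.43 to 1.00 for Postn, 0.26 to 0.64 for Tnc and -0.77 to -0.25 for Tgfbr1. In smooth muscle-like nuclei Fn1 ran from 0.62 to 0.94 and Postn from 0.57 to 0.82, and over all nuclei they ran from -0.81 to -0.45 and from -0.93 to -0.50. Of the log2 ratios under the alternatives set at the start, 229 moved by less than their counting interval and 21 by more. Smooth muscle-like Tgfbr2 turned from 0.27 to -0.66 with thinning and -0.47 with equal weights. The counts of genes past 1.5-fold were less steady. In fibroblast-like nuclei the higher count of 3 was 1 with scaling by median of ratios, 1 with TMM, 0 at 2-fold, 2 without integration, at resolution 2 and by marker score, and 4 with equal weights. There the lower count of 1 was 0 with each nucleus assigned by its own marker score, 0 with every nucleus weighted equally, 0 at 2-fold and 2 with no minimum above 1 UMI in each library. In smooth muscle-like nuclei the higher count of 2 was 1 with median of ratios, 1 with TMM and 0 at 2-fold, and over all nuclei the lower count of 6 was 3 at 2-fold. The class with the highest level was the same for 10 of 20 gene and library combinations with at most 3000 detected genes, 11 without integration and 13 by marker score. Among classes of at least 20 nuclei, which leaves out the enteric glia-like and mesothelial-like ones, Fn1, Postn and Ltbp1 stayed highest in smooth muscle-like nuclei under every alternative, and Tnc did so except in the HIF-1α KO library by marker score. The alternative clusterings did not split the immune nuclei again, so immune classes are not the same nuclei there. The causes of these changes were not tested. Settings without the subcluster led by Csmd1, without the richest nucleus, and the other B cell-like classes were chosen after seeing the data. With 1 pool per genotype, differences between mice, preparation and depth cannot be told apart from genotype.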
